A study of Danio rerio with 4 samples.

Results

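The genes of photoreception followed here were measured in the brain of foggy mutant zebrafish embryos and of wild-type (WT) embryos: the ultraviolet cone opsin opn1sw1, the cone transducin gamma subunit gngt2b, the cellular retinaldehyde-binding protein rlbp1a, and the retinol-binding proteins rbp4l and rbp4. They were chosen by symbol, with their difference between foggy and WT arrays already known, and they are 5 of the 8793 genes named on the Affymetrix zebrafish array. Each was read by 1 probe set, a group of short probes for 1 transcript, and all 5 probe sets were bright enough to be tested. The foggy group had 3 arrays and the WT group 1 array, all of total RNA from embryonic brain, with the time given as 36 h for WT and as 36 without a unit for foggy. The labels give no strain or allele, do not say whether the 3 foggy samples came from separate clutches, and do not say whether the eyes stayed with the brain. The foggy locus encodes Spt5, a protein that travels with RNA polymerase II and governs how it pauses and elongates.

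Photoreceptors detect light with an opsin, a receptor protein that carries the vitamin A derivative retinal. The activated opsin switches on transducin, a G protein, which in turn activates a phosphodiesterase that lowers cyclic GMP and closes ion channels in the cell membrane. The used retinal leaves the opsin and is remade in the retinal pigment epithelium, where Rpe65 and retinaldehyde-binding protein act, while Rbp4 carries retinol through the blood and Stra6 takes it up. In zebrafish the pineal organ forms photoreceptors before the retina does, and the first retinal cones and rods appear in a ventral patch.

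The 5 genes all read lower in the foggy arrays than in the WT array. The differences of opn1sw1 and gngt2b were larger than those of rlbp1a, rbp4l and rbp4. All 3 foggy arrays lay below the WT array for 5 of 5 genes, as they did for 28.4% of all tested probe sets, and for 2 of 5 genes, opn1sw1 and gngt2b, all 3 lay at least 2-fold below it, as for 0.571% of all. These counts follow from how the genes were chosen and nothing is read from them. For the same reason the values of the 5 genes are given as a description, with no test.

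The opsin of ultraviolet cones, opn1sw1 (NCBI Gene 30582), had signals of 117, 90.4 and 98.0 in foggy arrays 1 to 3, against 318 in the WT array. The foggy mean of 102 ± 13.8 (SD, n = 3) was 32.0% of the WT signal. The 3 foggy arrays were separated from the WT array by 201 signal units, while they differed among themselves by far less. On the log2 scale, after a pseudocount of 16.3 was added to each signal, the differences from the WT array were -1.33, -1.65 and -1.55. Their mean was -1.51, or 2.84-fold lower. The spread was wide for this array set, as 82.2% of tested probe sets had a smaller SD over the foggy arrays on this scale. The pseudocount shrinks differences of weak signals, and the ratio of the plain signals was 3.12.

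The transducin subunit gngt2b (NCBI Gene 797361), which anchors the cone G protein to the membrane, had signals of 62.8, 55.0 and 59.5 in the foggy arrays, against 217 in the WT array. Its mean difference was -1.63 on the log2 scale, and the foggy signal of 59.1 ± 3.93 (SD, n = 3) was 27.3% of the WT signal, a plain ratio of 3.67. The opsin and the transducin subunit thus stood close together. Their log2 differences were apart by 0.12 ± 0.097 (SD over the 3 foggy arrays), and gngt2b was the lower of the pair in each foggy array.

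The retinaldehyde-binding protein rlbp1a (NCBI Gene 393678), in zebrafish a protein of the pigment epithelium, had signals of 189, 191 and 190.2 in the foggy arrays, against 362 in the WT array. Its difference was -0.88 on the log2 scale, 1.84-fold lower. The 3 foggy arrays were almost the same, with a coefficient of variation of 0.515%, and just 0.627% of tested probe sets had a smaller SD over the foggy arrays on the log2 scale. This agreement concerns the foggy arrays alone and says nothing of how far a second WT array would lie from the first.

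The retinol-binding lipocalin rbp4l (NCBI Gene 335651) had signals of 206, 197 and 195 in the foggy arrays, against 376 in the WT array. Its difference was -0.86, or 1.82-fold lower, and it differed from that of rlbp1a by 0.01 ± 0.044 on the log2 scale (SD, n = 3). The plasma retinol carrier rbp4 (NCBI Gene 30077) had signals of 652, 639 and 623 in the foggy arrays, against 951 in the WT array. It showed the smallest difference of the 5, -0.56 on the log2 scale or 1.48-fold lower, and the foggy mean was 67.1% of the WT signal. The gap between rbp4l and rbp4 was 0.30 ± 0.015 on the log2 scale, and rbp4l was the lower of the pair in each foggy array. For rbp4l and for rbp4, foggy array 1 was the highest of the 3 and foggy array 3 the lowest.

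**Figure D1:**
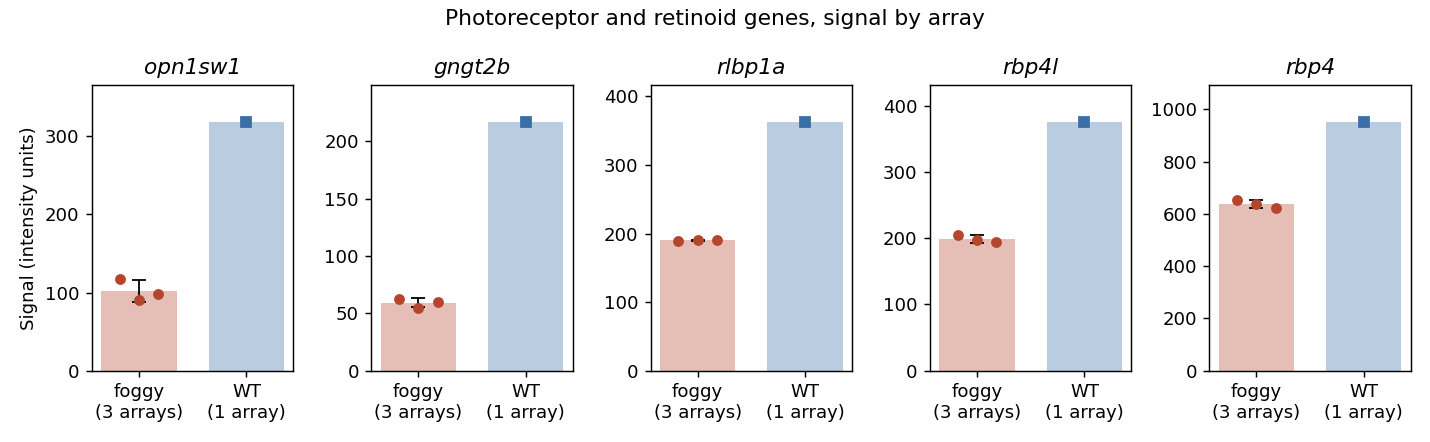
Signal in intensity units (vertical axes, each starting at 0) of the 5 genes in the foggy arrays (points, with the bar at their mean and the error bar 1 SD, n = 3) and in the WT array (square and bar, 1 array). In each panel the 3 foggy points lie below the WT square, from 27.3% of the WT signal for gngt2b to 67.1% for rbp4.

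The order of the 5 differences was gngt2b, opn1sw1, rlbp1a, rbp4l and rbp4, from the most negative. Within the pairs gngt2b with opn1sw1 and rlbp1a with rbp4l, the gap was close to or within its SD over the foggy arrays, as given above. The step between opn1sw1 and rlbp1a was 0.63 ± 0.17 on the log2 scale and that between rbp4l and rbp4 was 0.30 ± 0.015. All 5 differences share the 1 WT array, so an error of that whole array moves them together. An error of 1 probe set in the WT array moves its gene alone and so changes the gaps. The SDs of the gaps are taken over the foggy arrays and leave such an error out. Probes of different genes need not respond equally to the same change in RNA. In whole-tissue RNA, fewer cells of a type and less RNA per cell cannot be told apart.

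Other genes of the same pathway were read from lists chosen with earlier results of these data known. They were tested with limma, which fits all probe sets together. With 1 WT array the spread came from the foggy arrays, and the WT array was assumed to vary like them. A gene was called when its p, adjusted by Benjamini-Hochberg over the 10851 tested probe sets, was under 0.05. Each gene was represented by its brightest tested probe set, and on that basis 3.74% of the 6852 named genes were called lower and 2.19% higher in foggy, with a median log2 difference of 0.02. A doubled SD for the WT array ended every call in the 6 lists that follow (adjusted p between 0.0691 and 0.916).

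Among opsins, opn1sw2, the blue cone opsin, fell, and exorh, the rhodopsin of the pineal organ, did not pass. Of 6 other opsin genes on the array 2 were bright enough to test, of which 1 was lower and 0 were higher. The opn1sw2 signals were 57.8, 49.3 and 56.7 in the foggy arrays, against 120.3 in the WT array, a log2 difference of -0.95 (SE 0.15, limma adjusted p = 0.00511). All 3 foggy arrays lay well below the WT array. The exorh signals were 35.6, 33.9 and 33.7 in the foggy arrays and 46.8 in the WT array, with a log2 difference of -0.32 (limma adjusted p = 0.302).

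The green cone opsin opn1mw1, singled out after its values were seen, was set aside by the brightness filter, which uses the mean over the 4 arrays. It read 3.95, 4.98 and 5.02 in the foggy arrays, against 92.1 in the WT array. All 3 foggy signals lay under the filter level of 27.5, where the size of a difference depends on the pseudocount, so none is given. The other green opsins opn1mw2 and opn1mw4 and the red opsin opn1lw1 were set aside by the same filter, and the highest of their WT signals was 32.6, for opn1mw2. Opsin genes of 1 colour class are close copies, so part of such a signal may be shared between them.

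In the transduction cascade, 4 of 10 tested genes other than gngt2b fell and 0 rose, while 15 were too dim to test. The count was 3 of 9 without pdcb, whose foggy mean lay under the filter level. The list's median log2 difference was -0.49. A filter at the 50th percentile set all 4 called genes aside as dim. The rod transducin gamma subunit gngt1 had signals of 39.2, 32.5 and 33.1 in the foggy arrays, against 125 in the WT array, a log2 difference of -1.46 (SE 0.16, limma adjusted p = 0.000574). That of the cone phosphodiesterase inhibitory subunit pde6ha was -1.15 (limma adjusted p = 0.00369), with 46.3 ± 7.16 (SD, n = 3) in foggy arrays and 122 in the WT array. With a pseudocount of 1 and with a doubled one, the difference was -1.81 and -1.22 for gngt1 and -1.39 and -0.98 for pde6ha. The rod transducin alpha subunit gnat1 read 28.3 ± 1.65 (SD, n = 3) in foggy arrays and 66.0 in the WT array (-0.89, limma adjusted p = 0.0137). Its foggy signals lay close to the filter level of 27.5, and with the same 2 pseudocounts its difference was -1.20 and -0.70. Its other probe set differed by -0.56 and did not pass (limma adjusted p = 0.0895), and the gene's call was lost when its probe sets were combined by their median (adjusted p = 0.0516).

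Phosducin b, pdcb, which binds transducin beta and gamma subunits, fell by 0.85 on the log2 scale (limma adjusted p = 0.0425). Its foggy mean lay under the filter level, so it was tested only because its WT signal was high, and its call was lost with a pseudocount of 1, with no filter, with no variance trend and under quantile normalization (adjusted p = 0.0605, 0.103, 0.113 and 0.0558). The recoverin gene rcvrn2, a calcium sensor, read 167, 232 and 234 in the foggy arrays, against 327 in the WT array, with a log2 difference of -0.61 that did not pass (limma adjusted p = 0.0566). The rcvrn2 difference was -0.46, -0.68 and -0.69 without foggy arrays 1, 2 and 3, and -0.64 under cyclic loess, where it passed. It also passed in each run with a foggy array left out. There the spread came from fewer arrays, so nothing is read from those calls. The same holds for each gene below that passed only with a foggy array left out. The cone subunits gngt2a (-0.37) and pde6hb (-0.36) did not pass, with adjusted p of 0.259 and 0.275.

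The G protein beta subunit gnb1b, found in many cell types and the brightest gene of the list, did not pass. Its signals were 1454, 1652 and 1544 in the foggy arrays and 1544 in the WT array, a log2 difference of 0.00 (limma adjusted p = 0.984). The cone beta subunit gnb3b, singled out after its values were seen, was under the brightness filter. It read 16.6, 19.0 and 9.09 in the foggy arrays, against 62.5 in the WT array.

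In the retinoid cycle, the pigment epithelium isomerase rpe65a and the retinol receptor stra6 fell, which made 2 of 9 tested genes other than rlbp1a, rbp4l and rbp4, while 0 rose and 6 were too dim to test. The list's median log2 difference was -0.23. The brighter probe set of rpe65a had signals of 55.0, 48.7 and 52.6 in the foggy arrays, against 155 in the WT array, a log2 difference of -1.32 (SE 0.14, limma adjusted p = 0.000521). Its other probe set differed by -0.81 (limma adjusted p = 0.0203), in the same direction. The receptor stra6, which takes up retinol from Rbp4, read 101, 96.1 and 106 in the foggy arrays, against 149 in the WT array.

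The stra6 difference of -0.49 on the log2 scale passed narrowly (limma adjusted p = 0.0439) and was lost without foggy array 2, with no filter and with no variance trend (adjusted p = 0.0886, 0.0770 and 0.101). The intracellular retinol carrier rbp2a (-0.54, limma adjusted p = 0.107), the reductase dhrs3a (-0.31) and the saturase retsat.2 (-0.23) did not pass, and rbp2a passed without foggy array 1 (adjusted p = 0.0391). The opsin-like retinal isomerase rgrb read 146, 98.1 and 102 in the foggy arrays and 132 in the WT array, so its groups overlapped (limma adjusted p = 0.629, and 0.0434 without foggy array 1).

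**Figure D2:**
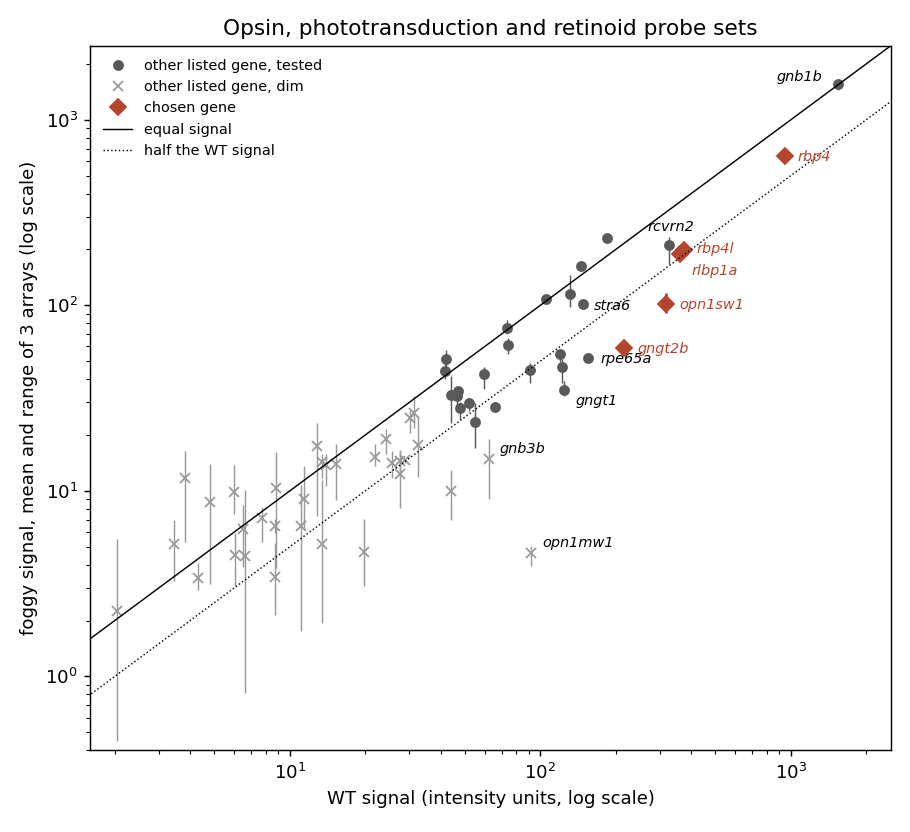
WT signal (horizontal, 1 array) against foggy signal (vertical, mean with a line over the range of 3 arrays) for every probe set of the opsin, phototransduction and retinoid cycle lists, both axes on a log scale in intensity units. The 5 chosen genes (diamonds) lie below the line of equal signal, gnb1b lies on it, and opn1mw1 and gnb3b are the dim probe sets (crosses) farthest to the right.

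Retinol is also the source of retinoic acid, a signal in eye and hindbrain development, and 2 of 13 tested genes that make, clear or bind it fell while 0 rose. The list's median log2 difference was -0.14. The synthesis enzyme aldh1a2 had signals of 109, 119.4 and 113 in the foggy arrays, against 199.5 in the WT array, a log2 difference of -0.73 (limma adjusted p = 0.00493). The clearance enzyme cyp26b1 differed by -0.51 (limma adjusted p = 0.0322), with 235 ± 26.9 (SD, n = 3) in foggy arrays and 341.0 in the WT array. Its call was lost without foggy array 2, with no filter and with no variance trend (adjusted p = 0.0562, 0.0774 and 0.167), and its 3 other probe sets had differences of -1.01, -0.40 and -0.27, of which the first passed (limma adjusted p = 0.00475). The related enzyme cyp26a1 (-0.30) passed only without foggy array 1 (adjusted p = 0.0410), and the receptors raraa (-0.21) and rxrga (-0.21) did not pass under any alternative run.

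Of 14 tested transcription factors of photoreceptors and their progenitors, 0 fell and 1, neurod4, rose, and the list's median log2 difference was 0.15. The proneural factor neurod4 had signals of 534, 572 and 515 in the foggy arrays, against 416 in the WT array, a log2 difference of 0.36 (limma adjusted p = 0.0260). That call was lost with no filter and with no variance trend (adjusted p = 0.0578 and 0.175). The cone-rod homeobox gene crx, a regulator of opsin and other photoreceptor genes, read 380.5, 427 and 429.8 in the foggy arrays, against 325 in the WT array. All 3 foggy arrays lay above the WT array, and the log2 difference of 0.33 did not pass (limma adjusted p = 0.0620), but did without foggy array 1 (adjusted p = 4.63e-05). The factors six6a (0.40) and rx2 (-0.51) did not pass, with adjusted p of 0.206 and 0.121. The retinal and neuronal factor neurod1 read 1292 ± 7.31 (SD, n = 3) in foggy arrays and 1271 in the WT array (limma adjusted p = 0.871).

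Of 8 tested genes for the outer segment, the photoreceptor synapse and cell maintenance, 1 fell and 0 rose, with a list median of -0.03 on the log2 scale. It was elovl4b, a fatty acid elongase of the retina, with signals of 298, 347 and 365 in the foggy arrays, against 633 in the WT array (log2 difference -0.89, limma adjusted p = 0.000928). The disc protein rom1b (-0.32), the ciliary protein rp2 (0.30) and the transport protein unc119b (-0.08) did not pass, and rp2 passed without foggy array 1 (adjusted p = 0.00921). The disc rim genes prph2a and prph2b were dim in all 4 arrays.

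**Figure D3:**
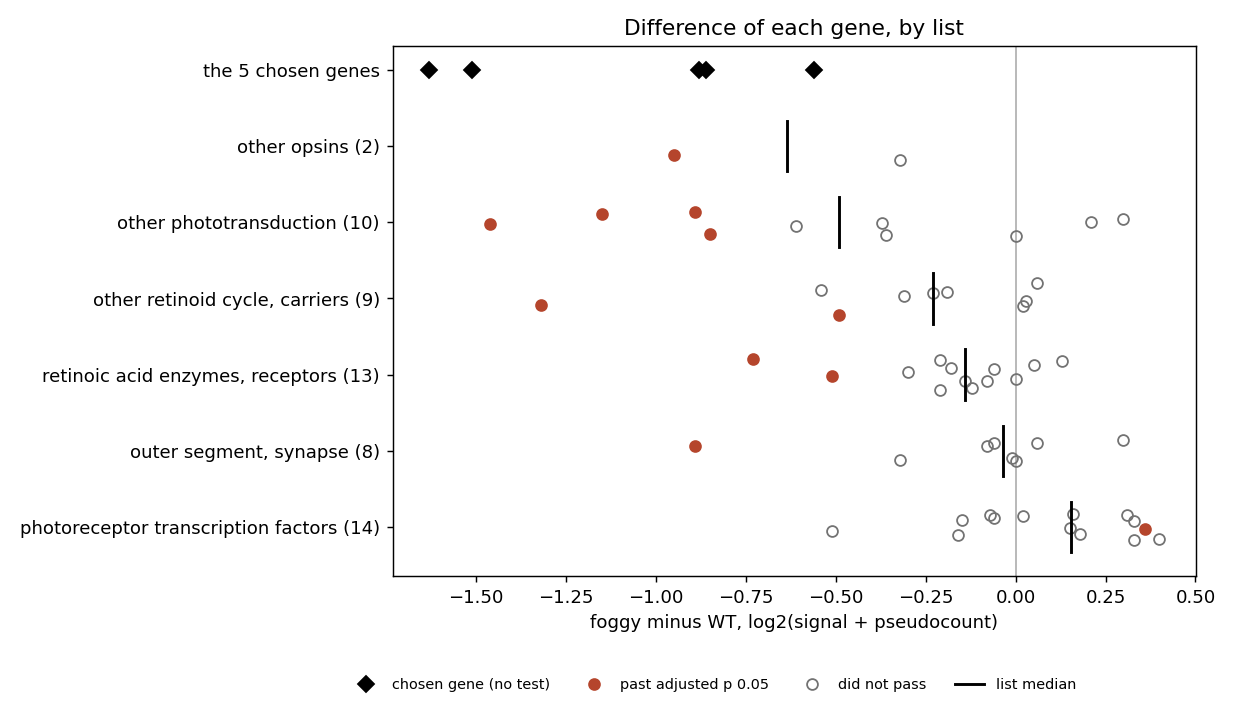
Difference of foggy minus WT on the log2(signal + pseudocount) scale (horizontal) for the 5 chosen genes (diamonds, not tested) and for the tested genes of 6 lists, 1 point a gene with the number of genes in brackets. Filled points passed an adjusted p of 0.05, and vertical lines are list medians, which run from -0.63 for the 2 other opsins to 0.15 for the photoreceptor transcription factors.

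Most tested markers of lens, red blood cells and skeletal muscle moved with these genes, while those of pigment cells were mixed. No tested gene of the pineal list or of the yolk and liver list passed. In the brain and epidermis lists most did not pass, and those that did, counted below, went in both directions. Over all named genes, as above, 3.74% were called lower and 2.19% higher. In the list of other retinal neurons and Müller glia, given under other observations, 10 of 15 tested genes lay below 0. The median log2 difference of that list was -0.17. The part of other cell types in the result was not tested. Of 5 tested lens genes 4 fell and 0 rose. Summed signals, here and below, cover every probe set of the genes of a list, dim ones included, so the brightest weigh most. For lens they were 2991 to 3191 over the foggy arrays and 5179 in the WT array. The lens filament gene bfsp2 differed by -1.26, crygmxl2 by -0.94 and crybb1 by -0.92 on the log2 scale (limma adjusted p = 0.00216, 2.40e-05 and 0.00106), and with a doubled WT SD bfsp2 and crybb1 lost their calls (0.191 and 0.114). Of 7 pigment cell and pigment epithelium genes 4 fell and 1 rose, with summed signals of 1525 to 1598 and 2614, and the defining melanin enzyme gene tyr was dim in all 4 arrays. The pteridine enzyme gene gch2, a marker of pigment cells outside the eye, differed by -1.23 (limma adjusted p = 5.21e-06). The melanin enzyme gene dct differed by -0.77 and passed as well, but lost its call with a doubled WT SD. Another of the 4 that fell was rpe65a, already counted in the retinoid cycle. The gene that rose, named after its values were seen, was bhlhe40 (0.39), and 3 of the 7 lay above 0.

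Blood and muscle genes read lower as well. Of 7 tested red blood cell genes 6 fell and 0 rose. The summed signals of that list were 2364 to 2517 in foggy arrays and 10719 in the WT array. Probe sets of the globin gene hbae3 gave 5131 and 3948 of that WT sum. Of 16 skeletal muscle genes 13 fell and 0 rose, with summed signals of 3044.5 to 3220 in foggy arrays and 7824 in the WT array. In the yolk syncytial layer and liver list, the sites of plasma carrier synthesis, 0 of 7 tested genes passed and 17 genes were dim. Its summed signals were 861 to 944 in foggy arrays and 863 in the WT array, so the groups overlapped. The gene apoeb, singled out after its values were seen, gave 420, 401 and 472 of the foggy sums and 406 of the WT sum. At an unadjusted limma p under 0.05 the count in this list was 1. With a doubled WT SD, 1 of 5 lens, 1 of 7 pigment, 5 of 7 red blood cell and 7 of 16 skeletal muscle genes were called lower.

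Pineal markers gave few readable genes. Of 5 tested, 0 passed limma's adjusted p and 1 passed an unadjusted p under 0.05, and the summed signals were 302.5 to 331 in foggy arrays and 373 in the WT array. The defining melatonin enzyme aanat2 read 53.8, 41.9 and 58.0 in the foggy arrays and 54.0 in the WT array, so its groups overlapped.

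All 16 brain neuron and progenitor genes were bright enough to test, of which 1 fell and 3 rose, and the summed signals of 14935 to 15513 in foggy arrays spanned the 15345 of the WT array. All 18 epidermis genes were bright too, with summed signals of 46572 to 47944 in foggy arrays and 44361 in the WT array, and 2 of them fell and 2 rose. With a doubled WT SD, limma called 0 genes in either list. With no variance trend it called 0 brain genes and 1 epidermis gene, which was lower. Without foggy array 1 it called 4 brain genes lower and 4 higher, and 3 epidermis genes lower and 7 higher. Without foggy array 2 or foggy array 3 it called 1 brain gene lower and 2 higher, and 1 epidermis gene lower and 0 higher. Signal of skin genes was thus present beside that of neural genes in the foggy and the WT arrays alike.

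**Figure D4:**
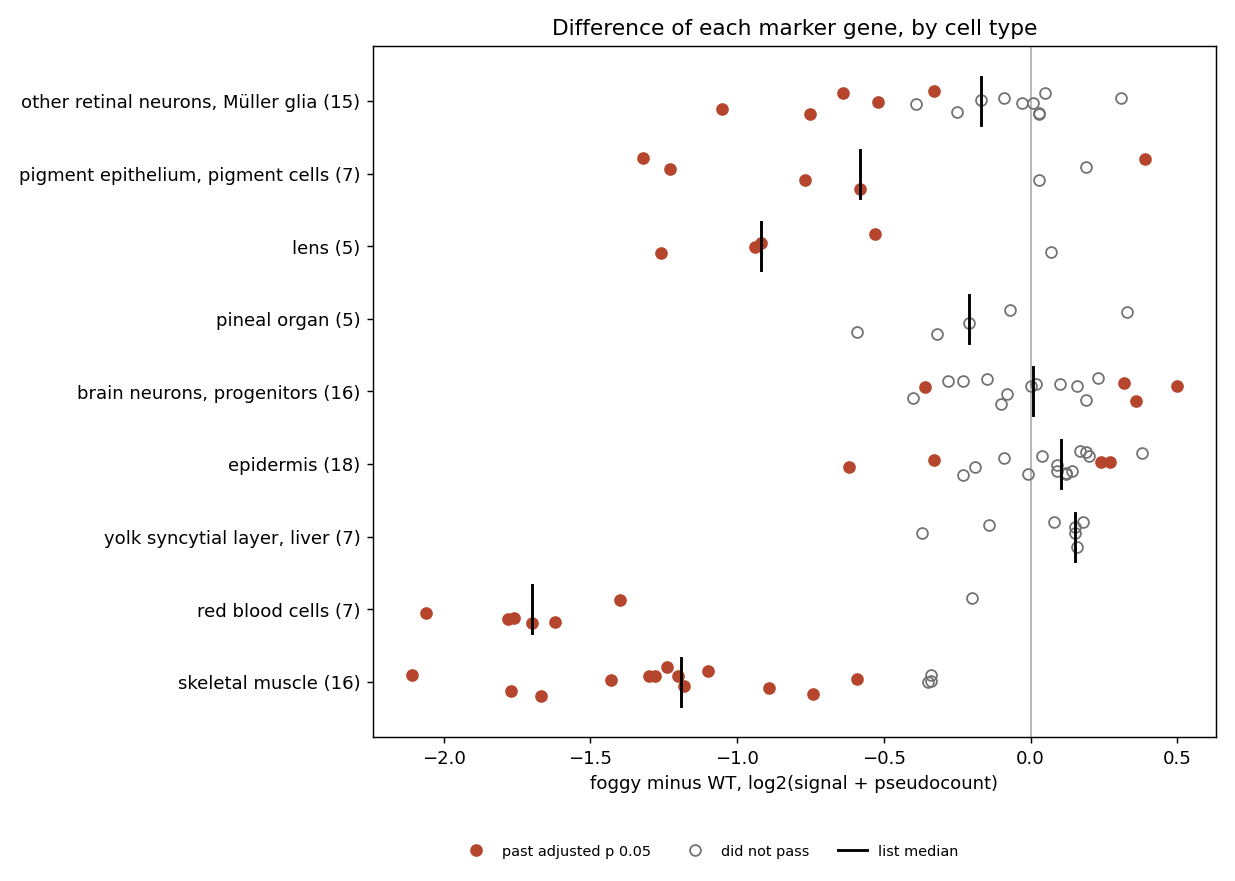
Difference of foggy minus WT on the log2(signal + pseudocount) scale (horizontal) for tested marker genes of 9 cell types, 1 point a gene with the number of genes in brackets, filled where the adjusted p was under 0.05. To the left of 0 lie 16 of 16 skeletal muscle, 7 of 7 red blood cell, 4 of 5 lens, 4 of 5 pineal, 10 of 15 other retinal, 4 of 7 pigment, 7 of 16 brain, 6 of 18 epidermis and 2 of 7 yolk or liver genes.

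Genes whose 3 log2 differences from the WT array were closest to those of each of the 5 were found by Euclidean distance. The search covered 3834 named genes of at least median brightness. The distance counts the size of the differences, known when the 5 genes were chosen, and not only their course over the foggy arrays. The 3 points of each gene share the WT array, so this likeness is a description. Nearest to opn1sw1 were actc1b, a muscle actin, hbbe2, an embryonic globin, and dhrs13a.2, a dehydrogenase, at distances of 0.18, 0.21 and 0.21. Nearest to gngt2b were dhrs13a.2 (0.065), hbbe2 (0.078) and wu:fc46h12 (0.10), which has no described product here. The carbonic anhydrase ca2 and the muscle calcium pump atp2a1 were among the 3 nearest to rlbp1a (0.069 and 0.078) and also to rbp4l (0.088 and 0.054), and the third was the 14-3-3 gene ywhag1 (0.097) for rlbp1a and sox11b (0.12) for rbp4l. Nearest to rbp4 were the purine enzyme impdh1b (0.033), the sodium pump subunit atp1a1b (0.066) and the filament gene vim (0.069).

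By gene order in the RefSeq table of assembly GRCz12tu, used for names and neighbours alone, both retinol-binding protein genes lie beside a phosphodiesterase gene of photoreceptors. The next coding gene after rbp4 is pde6c, the cone catalytic subunit, and rbp4l lies within the span of pde6b, a rod catalytic subunit. The pde6c probe set was dim, with signals of 14.1, 16.3 and 11.8 in the foggy arrays and 25.5 in the WT array. All 3 foggy arrays lay below the WT array, and all 4 signals were under the filter level. The other 3 genes have no phototransduction gene as a direct neighbour.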

How the data were processed

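The authors deposited linear probe set intensity values of 4 arrays. How they summarised probes and corrected background is not given in the sources used here. Deposited intensity values were already scaled, since the mean after trimming 2% at each end was 150.03 in all 4 arrays, so a rise or fall is relative to other transcripts. The 115 control probe sets were left out, a pseudocount of 16.3 (the 20th percentile) was added, log2 was taken, and the 4651 probe sets under the 30th percentile of mean log2 value, a signal of about 27.5, were set aside as dim. The other 10851 were fitted with limma 3.58.1 in R 4.3.3 (eBayes with a trend, two-sided, 2 residual and 7.89 prior degrees of freedom). The fit was also run on simulated data. There the WT array was given the spread of the foggy arrays, so that run cannot test whether the real WT array varies like them. A permutation of the arrays cannot go below p = 0.25. Nothing says that the foggy samples are independent, so p-values cover their spread alone, which could be technical, and precision is limited by the number of arrays. Foggy arrays 2 and 3 were closest (SD between them 0.208 on the log2 scale, against 0.235 and 0.237 with foggy array 1). More probe sets passed without foggy array 1, for which the cause was not tested. Runs with a foggy array left out took the spread from fewer arrays, so a call gained only there is not read as added evidence.

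Symbols came from the platform annotation, updated by gene number (10718 of 10802 probe sets with 1 symbol matched, 135 had several and 4680 none here). The 5 genes and all lists were chosen with earlier results of these data known. Named list genes were, in each pathway list, those past the adjusted p, the 3 largest that did not pass and the brightest, and in each marker list up to 3 that passed. Genes named outside this rule are given as defining markers, as neighbours or as singled out. Alternatives varied the pseudocount, filter, normalization, variance model, WT SD, arrays and the probe set of a gene. A planned search of promoters for motifs was not run, as no sequence was used here.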

Additional observations from a re-analysis of the deposited data

How the results depend on the processing

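The differences of the 5 genes kept their direction under every alternative run. Nothing is read from that, because the genes were chosen with this contrast known and every run kept the same WT array. With a pseudocount of 1 the differences were -1.86 for gngt2b, -0.91 for rbp4l and -0.93 for rlbp1a, and with a doubled pseudocount -1.45, -0.82 and -0.83. For rlbp1a, whose SD was smallest, they were -0.91 under cyclic loess and -0.90 under quantile normalization. The pseudocount shrinks differences by construction. Calls over all probe sets, 341 lower and 256 higher in foggy, became 44 and 3 with a doubled WT SD and 137 and 27 without the variance trend, and the number higher became 129 without a filter. Leaving out 1 foggy array gave 348 to 878 lower and 218 to 1186 higher, the highest without foggy array 1. Probe sets at least 2-fold higher in all 3 foggy arrays, 2 in all, numbered 8 with a pseudocount of 1, 1 with a doubled pseudocount and 1 with a filter at the 50th percentile. With a doubled WT SD 0 genes passed in the 6 pathway lists. Without a filter 2 other opsins, 1 retinoid cycle gene and 1 retinoic acid gene were lower and 0 photoreceptor transcription factors higher. Without the variance trend these last 3 numbers were 1, 1 and 0. The opsin gained without a filter was opn1mw1, whose foggy signals of 3.95 to 5.02 lay under the filter level, against 92.1 in the WT array. A filter at the 50th percentile left 0 phototransduction genes lower, because it removed the dim ones. Leaving out 1 foggy array gave 1 to 4 retinoid cycle and 1 to 3 retinoic acid genes lower, 1 to 2 transcription factors higher, and 0 to 1 higher in each of the phototransduction, retinoic acid and outer segment lists. Apart from the pseudocount and the filters, the cause of these shifts was not tested. No paired analysis was possible because there was 1 WT array and the labels name no pairs. Low signal limits the opsin and phototransduction lists, where 19 of 31 genes were dim.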

Other observations

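Other cells of the retina were read from a list of retinal neuron and Müller glia genes, of which 5 of 15 tested fell, 0 rose and 10 did not pass. The calcium-binding protein gene calb2a, of amacrine and ganglion cells, had signals of 234, 216 and 237 in the foggy arrays, against 492 in the WT array, a log2 difference of -1.05 (SE 0.089, limma adjusted p = 0.000128). The glutamine synthetase gene glula, which Müller glia use to clear glutamate, differed by -0.75 (limma adjusted p = 0.00140), with 377 ± 32.6 (SD, n = 3) in foggy arrays and 645 in the WT array. The eye and neural progenitor factor pax6b differed by -0.64 (limma adjusted p = 0.0105). The remaining 2, named after their values were seen, were isl1a (-0.52, limma adjusted p = 0.00107) and calb2b (-0.33, limma adjusted p = 0.0202). The other isl1a probe set differed by -0.32 and did not pass. With the WT SD doubled, the calls of glula and pax6b were lost (adjusted p = 0.139 and 0.517) and that of calb2a was not (0.0232). The calls of isl1a and calb2b were also lost in that run. With no variance trend glula and pax6b lost theirs too (adjusted p = 0.0585 and 0.0663), and limma called 1 of the 15 genes. Many of these genes are also expressed in brain neurons or glia, so their values do not separate the retina from the brain.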
